A study of Mus musculus with 12 samples.

Results

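The epicardium is the mesothelial cell layer that covers the heart, and 9 genes used as markers of it and of other mesothelium were followed in embryonic ventricle: Upk3b, Upk1b, Wt1, Tbx18, Aldh1a2, Msln, Bnc1, Krt19 and Lrrn4. Every probe set that the platform annotation assigns to 1 of these genes alone was taken, which gave 14 probe sets among 34945 single-gene probe sets. The genes were chosen by their role in this layer and with measured values of these arrays in view, among them the lower Upk3b signal of Hopx-null against wild-type ventricles. Values of that contrast are therefore given as a description, with no p.

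Expression was measured in mouse cardiac ventricle at embryonic day 16.5 on 12 single-colour arrays, with 3 independent ventricles for each of 4 genotypes. The groups were wild type (WT), Hdac2-null, lacking the class I histone deacetylase gene Hdac2, Hopx-null, lacking Hopx, whose small homeodomain product acts in cardiac muscle without binding DNA, and double-null, lacking both genes. The series asks how deficiency of either or both affects the embryonic heart. Strain, the alleles and any Cre driver are not given in the sources used here.

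During heart development, cells of the proepicardium spread over the myocardium to form the epicardium. Some epicardial cells then leave the surface by an epithelial to mesenchymal transition and give rise to cardiac fibroblasts and mural cells of the coronary vessels, while the layer supplies retinoic acid and growth factors to the muscle below. Wt1 and Tbx18 encode transcription factors of this layer, and Aldh1a2 the enzyme that makes retinoic acid from retinaldehyde. Upk3b and Upk1b belong to the uroplakins, membrane proteins first known from bladder urothelium that mesothelium also makes. Msln encodes the surface protein mesothelin, Bnc1 a zinc finger protein of epithelia, Krt19 a keratin and Lrrn4 a leucine-rich repeat membrane protein.

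The signals of the targeted genes differed as the labels say. The brightest Hdac2 probe set was between 4442 and 5683 signal units on the 6 arrays with Hdac2 and at most 4.32 on the 6 without it, and the brightest Hopx probe set was between 8577 and 12240.1 units on the 6 arrays with Hopx and between 1656 and 2066 on the 6 without it, still far above background. A second Hopx probe set was between 520 and 1558 units with Hopx and at most 13.3 without it. Whether the brighter one lies outside the deleted part of the gene is not known here. Signals below a floor of 82.5 units, derived from the arrays' mean signal, were treated as not measured above background, and between 37.51% and 37.89% of probe sets exceeded it on each array. Xist, the RNA that coats a silenced X, was at 4988 units or more on 5 arrays (WT 1, WT 2 and replicate 1 of each null genotype) and at most 22.2 on the other 7, and this split was not balanced over the genotypes. WT 1 had the highest ratio of 3′ to 5′ Gapdh signal, a measure of RNA integrity (log2 1.33, against 0.84 to 1.07 on the other 11 arrays). The same ratio for Actb did not set WT 1 apart (log2 2.76, within 2.63 to 2.80 over all 12 arrays). WT 1 also had the highest signal of 6 of the 9 markers, so differences against WT are also given without it for the markers that this moved most.

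Of the 9 markers, 6 (Upk3b, Upk1b, Wt1, Tbx18, Aldh1a2 and Msln) exceeded the floor on all 12 arrays. Bnc1 exceeded it on 2 arrays, and Krt19 and Lrrn4 on none. The transcription factors and the retinoic acid enzyme that define the epicardium were thus measured in every ventricle, while the keratin and Lrrn4 were not measured above background. These are bulk ventricles, so fewer cells of a layer and less RNA per cell cannot be told apart.

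Promoter sequence of Upk3b and Tbx18 is shown because their brightest probe sets lay on opposite sides when Hopx was absent, Upk3b lower and Tbx18 higher. A second Tbx18 probe set did not repeat this (log2 0.02 in Hopx absent against present). RefSeq promoters of build GRCm38.p6 were found for 5 of the 9 markers (Upk3b, Tbx18, Aldh1a2, Bnc1 and Lrrn4), and the 250 bases before the start were searched on both strands. Capitals mark the letters GGAATG or their reverse complement CATTCC, the binding motif of TEAD factors, which act with the Hippo pathway in epicardium.
Upk3b, chr5:136038246-136038495, plus strand: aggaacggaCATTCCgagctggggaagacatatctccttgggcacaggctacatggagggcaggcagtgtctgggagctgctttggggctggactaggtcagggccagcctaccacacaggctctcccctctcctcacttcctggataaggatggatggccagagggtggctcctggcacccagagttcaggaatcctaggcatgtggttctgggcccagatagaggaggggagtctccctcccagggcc
Tbx18, chr9:87731261-87731510, minus strand: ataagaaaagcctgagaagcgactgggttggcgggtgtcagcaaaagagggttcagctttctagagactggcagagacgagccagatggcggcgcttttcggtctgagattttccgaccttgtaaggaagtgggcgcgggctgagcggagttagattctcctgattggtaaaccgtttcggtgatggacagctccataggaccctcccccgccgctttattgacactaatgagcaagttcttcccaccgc
The motif occurred once each in the Upk3b and Lrrn4 windows and was not found in those of Tbx18, Aldh1a2 and Bnc1, where 12.6% of 32851 promoters of this length hold it. The GATA motif AGATAA and the T-box motif GGTGTGA occurred in none of the 5 windows, against 9.99% and 3.33% of all promoters. A match of letters is a description, not a site.

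The uroplakin Upk3b had the clearest order by genotype. Its brightest probe set gave 1800.2, 1427 and 1765 units in WT, 1609, 1625 and 1628 in Hdac2-null, 1391, 1111 and 1084 in Hopx-null and 1181, 1511 and 1117 in double-null ventricles. Both genotypes that kept Hopx were high and both that lacked it were low. The exception was WT 2, which lay below double-null 2. The means were 1664 ± 206 (SD, n = 3) in WT, 1621 ± 10.1 in Hdac2-null, 1269 ± 211 in double-null and 1195 ± 170.3 in Hopx-null ventricles. From high to low this order was WT, Hdac2-null, double-null and Hopx-null, and WT with Hdac2-null, and double-null with Hopx-null, differed by less than the SD of the wider group of each pair.

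A second Upk3b probe set gave the same order of means, 884 ± 129.98, 871 ± 36.1, 654 ± 144 and 644 ± 97.3 units. Its WT values were 956, 734 and 963, and those of Hopx-null 755, 573 and 605, so that here WT 2 fell among the Hopx-null arrays. Hdac2-null gave 904, 833 and 875, all above the double-null values of 633, 806 and 521. Both probe sets read the same RNA and are not replicates of each other.

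**Figure D1:**
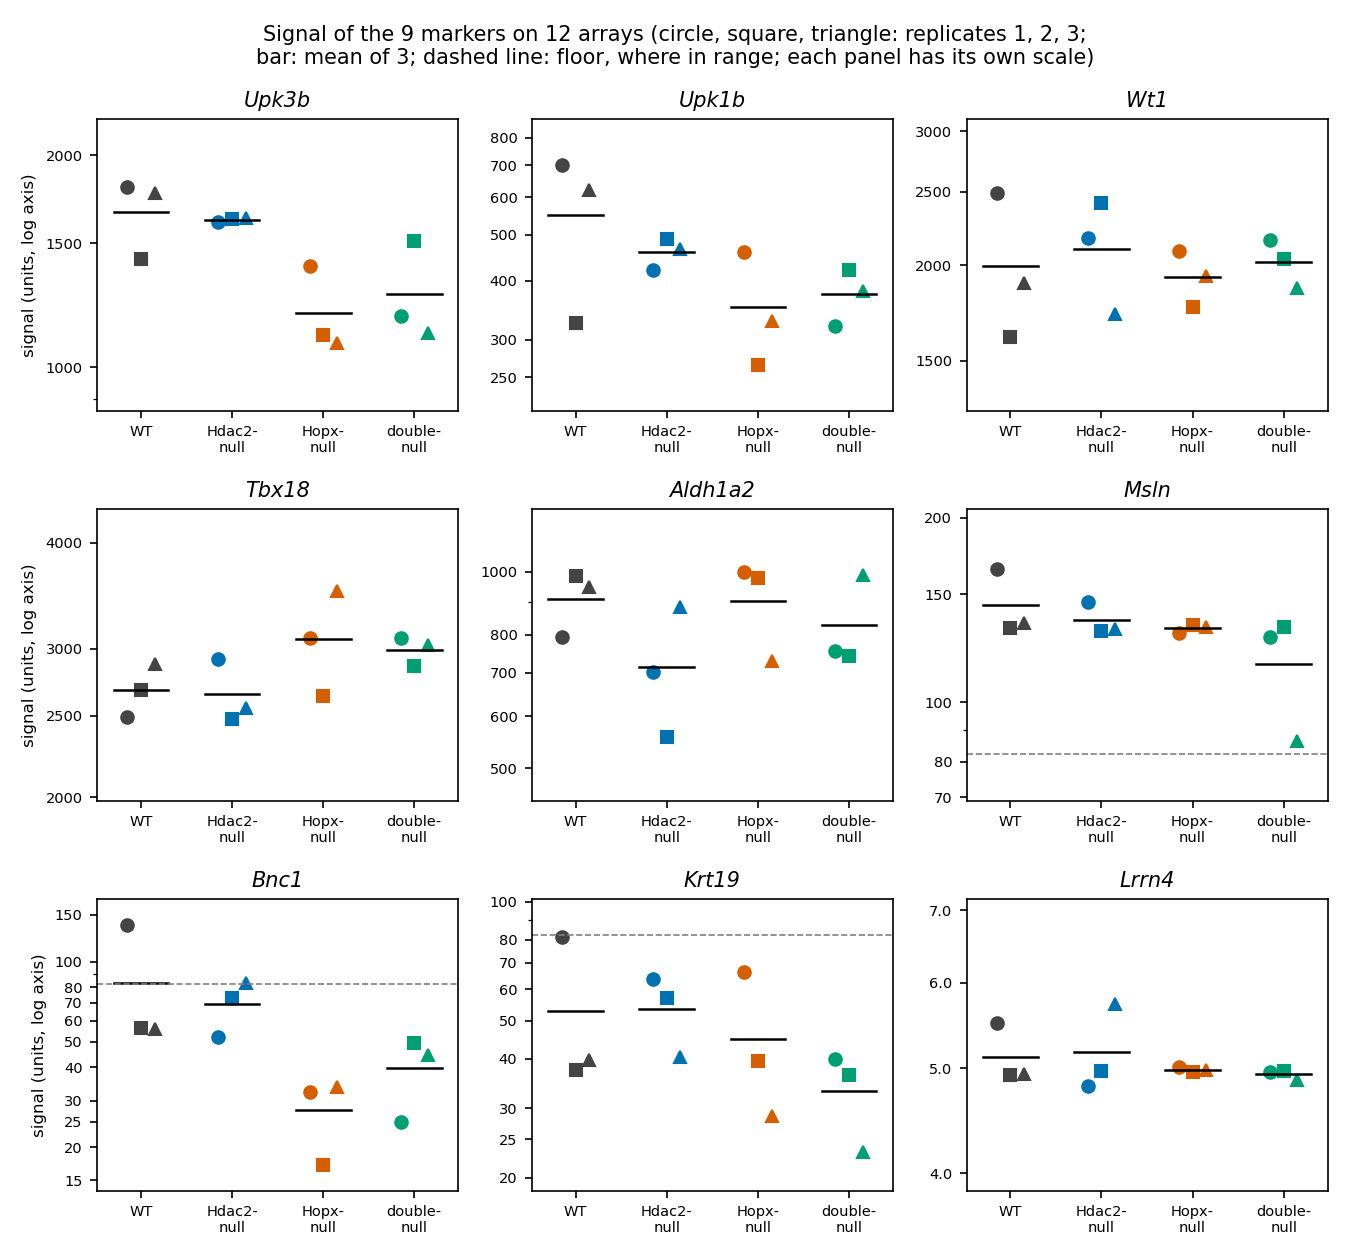
Signal of the brightest probe set of each of the 9 markers (y axis, signal units on a log axis with its own range per panel) in the 4 genotypes; points are arrays, bars the means of 3, and the dashed line the floor of 82.5 units. Upk3b, Upk1b and Bnc1 have their lowest means in Hopx-null, next lowest in double-null ventricles, and Krt19 and Lrrn4 lie below the floor on all 12 arrays.

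Upk1b, a tetraspanin that is the partner of other uroplakins in the urothelial plaque, followed Upk3b. Its brightest probe set gave 701, 326 and 623 units in WT, 420.7, 489.6 and 467 in Hdac2-null, 461, 266 and 329 in Hopx-null and 321, 420.9 and 381 in double-null ventricles. WT 2 lay within the Hopx-null values, and Hdac2-null 1 was level with double-null 2. The means were 550 ± 198 (SD, n = 3), 459 ± 35.1, 352 ± 99.5 and 374 ± 50.5, the same order of genotypes as for Upk3b, and WT and Hdac2-null, like double-null and Hopx-null, differed by less than an SD of the wider group. The other 3 Upk1b probe sets were at or below 15.5 units on every array. The suffix of the bright one marks probes that may also bind other transcripts, so its signal is less certain to be Upk1b.

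Bnc1 was at the limit of the measurement. Its deposited signals were 138, 56.1 and 55.7 units in WT, 51.8, 72.7 and 83.1 in Hdac2-null, 32.3, 17.2 and 33.7 in Hopx-null and 25.0, 49.6 and 44.6 in double-null ventricles. All 6 arrays without Hopx read lower than all 6 with it, with means of 33.7 ± 12.02 against 76.2 ± 32.4 (SD, n = 6), but only WT 1 and Hdac2-null 3 exceeded the floor. The share of all genes separated in this way was not computed. Krt19 read 81.2, 37.5 and 39.8 units in WT, 63.5, 56.9 and 40.4 in Hdac2-null, 66.2, 39.5 and 28.6 in Hopx-null and 39.9, 36.3 and 23.2 in double-null ventricles. Every double-null array read below every Hdac2-null array, the closest by less than 1 unit, and the other groups overlapped. Of the genes tested, 12.7% were lower without overlap in that comparison on floored values. Lrrn4 lay between 4.82 and 5.73 units on all 12 arrays. Krt19 and Lrrn4 were at the floor everywhere and could not be tested.

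The transcription factors of the epicardium showed another picture. Wt1, needed for the epicardial transition, gave 2487, 1613 and 1899 units in WT, 2174, 2415 and 1726 in Hdac2-null, 2089, 1762 and 1939 in Hopx-null and 2157, 2037 and 1869 in double-null ventricles. The 4 groups overlapped, and their means of 2000 ± 446, 2105 ± 349.5, 1930 ± 163 and 2021 ± 145 (SD, n = 3) did not differ beyond the spread. Tbx18, which is also made by mural cells of vessels, gave 2489, 2680.1 and 2876 units in WT, 2914, 2479 and 2551 in Hdac2-null, 3085, 2633 and 3507 in Hopx-null and 3083, 2859 and 3027 in double-null ventricles. Its means were higher where Hopx was absent, 3075 ± 437 and 2990 ± 117 against 2682 ± 194 and 2648 ± 233, with overlap between the groups. A second Tbx18 probe set did not repeat that order, with 1000 ± 39.2 units in WT, 950 ± 92.4 in Hdac2-null, 931 ± 172 in double-null and 1057 ± 33.0 in Hopx-null ventricles.

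Aldh1a2, the retinoic acid enzyme, gave 795, 984 and 948 units in WT, 702, 557 and 884 in Hdac2-null, 997, 979.5 and 729 in Hopx-null and 756, 743 and 990 in double-null ventricles. The lowest values were those of Hdac2-null 1 and 2, and the groups overlapped. Msln gave 165, 132 and 135 units in WT, 146, 131 and 132 in Hdac2-null, 129.7, 133 and 133 in Hopx-null and 128, 132 and 86.4 in double-null ventricles. Apart from WT 1 and double-null 3, its values lay between 128 and 146 units in all genotypes.

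Loss of Hopx where Hdac2 is present, the contrast in view when the markers were chosen, gave lower values for 6 of 7 tested markers, with a median log2 difference of -0.12 against 0.00 over all 9667 genes tested. Upk3b was 1.39-fold lower in Hopx-null than in WT (log2 -0.48, SE 0.14) and Upk1b 1.52-fold lower (log2 -0.61, SE 0.27). The labels state no pairing of arrays. If arrays of the same number are taken as pairs, both Upk3b probe sets and the bright Upk1b probe set were lower in 3 of 3 (brightest Upk3b set -0.37, -0.36 and -0.70, Upk1b -0.60, -0.29 and -0.92). Without WT 1 the fitted differences of Upk3b and Upk1b were -0.42 and -0.39, the latter more than 1.5 times smaller. Without WT 2 that of Upk1b was -0.95. The mean of all 4 Upk1b probe sets, 3 of them below the floor, gave -0.15. Msln was at -0.12 (SE 0.15), Wt1 at -0.03 (SE 0.16), Aldh1a2 at -0.02 (SE 0.19) and Tbx18 at 0.19 (SE 0.10). Bnc1 was at -0.25 (SE 0.16) on floored values, all of it from WT 1, since the value without that array was 0. With no floor Bnc1 was at -1.51 (SE 0.42), from deposited signals that lay mostly below the floor. Without WT 1, Msln was at -0.017, Wt1 at 0.14 and the median at -0.017, with 4 of 7 markers lower; without another single array the median lay between -0.18 and -0.11. Hopx was the only gene called, 0.0103% of those tested, and on floored values Upk3b was the only marker whose 2 groups did not overlap, where 2.53% of genes were lower without overlap.

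Loss of Hopx where Hdac2 is absent compares double-null with Hdac2-null ventricles, arrays that the first contrast did not use. Upk3b was again lower, 1.29-fold (log2 -0.37, SE 0.14), with every double-null array below every Hdac2-null array. No other tested marker was lower without overlap on floored values. This did not pass the test over all genes (unadjusted p = 0.0233, adjusted p = 0.384, limma), and 12.7% of genes were lower without overlap in this comparison. The second Upk3b probe set was at log2 -0.44 (SE 0.17, adjusted p = 0.395 in a limma fit of all probe sets). With arrays weighted by quality the difference of the first was -0.18 (adjusted p = 0.297), and over the alternatives, each array left out included, the adjusted p ran from 0.297 to 0.881.

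Upk1b was at log2 -0.30 (SE 0.27, adjusted p = 0.716) and Msln at -0.26 (SE 0.15, adjusted p = 0.547), the latter resting on double-null 3, without which it was -0.06. Upk1b was at -0.19 without double-null 1, at -0.13 with array weights and at -0.075 as the mean of its probe sets. Tbx18 was at 0.18 (SE 0.10, adjusted p = 0.543), Aldh1a2 at 0.23 (SE 0.19, adjusted p = 0.683) and Wt1 at -0.05 (SE 0.16, adjusted p = 0.946). Aldh1a2 was at 0.061 without Hdac2-null 2 and at 0.094 without double-null 3, and Tbx18 at 0.068 with array weights and 0.069 as the mean of its probe sets. Bnc1 was at the floor on all double-null arrays and on 2 of the 3 Hdac2-null arrays (0.00, SE 0.16, adjusted p = 1). With no floor it was at -0.83 (SE 0.42, adjusted p = 0.508). In all, limma called 0 of 7 tested markers, against 0.0103% of all genes, and 1 of 7 had an unadjusted p under 0.05, against 11.3% of all genes. The median over the 7 was -0.05, and over all genes 0.00.

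**Figure D2:**
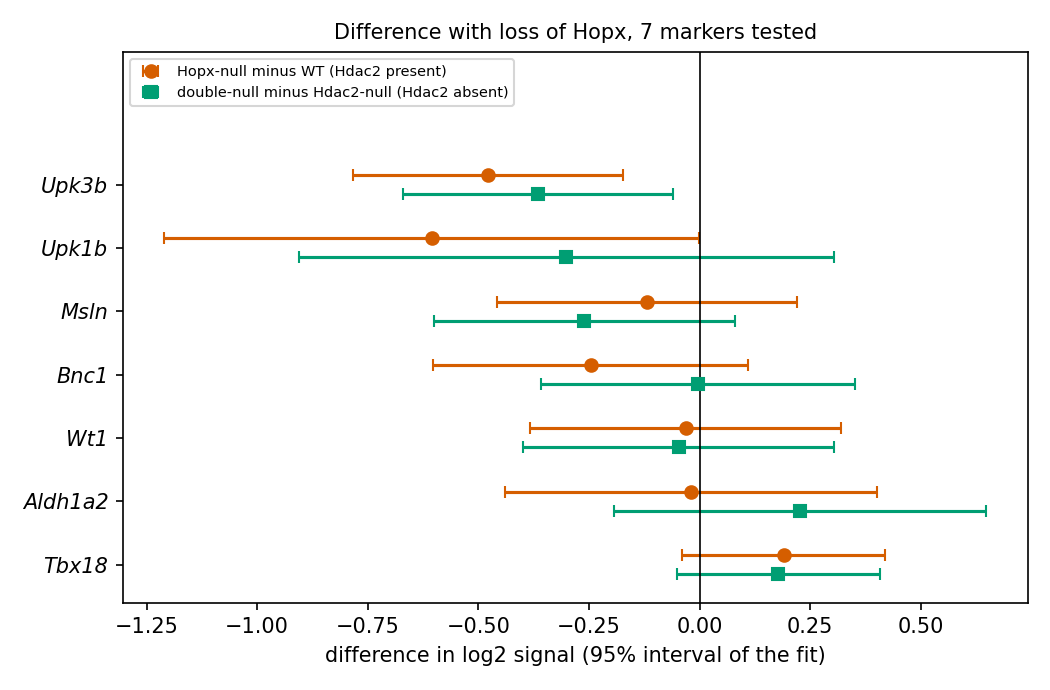
Difference in log2 signal (x axis) with loss of Hopx for the 7 tested markers, as Hopx-null minus WT (circles) and double-null minus Hdac2-null (squares), with 95% intervals of the limma fit over 12 arrays. The markers were chosen with Hopx-null against WT in view, so the intervals of the circles are a description and not a test. Upk3b lies at -0.48 and -0.37, Upk1b at -0.61 and -0.30, Tbx18 at 0.19 and 0.18, and Wt1 at -0.03 and -0.05.

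The difference between these 2 comparisons, the interaction of Hdac2 and Hopx loss, was 0.11 for Upk3b (SE 0.20, 95% interval -0.32 to 0.55) and 0.30 for Upk1b (SE 0.39, 95% interval -0.55 to 1.16). It includes the contrast in view when the markers were chosen and is given with no p. Leaving out 1 array moved these between -0.018 and 0.23 for Upk3b and between 0.092 and 0.64 for Upk1b. Over all 12 arrays, Upk3b averaged 1232 ± 176 units without Hopx and 1642 ± 133 with it (SD, n = 6), a log2 difference of -0.42 (SE 0.10), and Upk1b 363 ± 71.6 against 504 ± 136, at -0.45 (SE 0.19). These averages also hold that contrast and are given with no p. Of the 6 arrays without Hopx, 5 were below all 6 with it for Upk3b, and 2 for Upk1b. The shares of all genes with such counts were not computed.

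In Hdac2-null against WT ventricles Upk3b was at log2 -0.03 (SE 0.14, 95% interval -0.34 to 0.27, adjusted p = 0.991) and Upk1b at -0.19 (SE 0.27, adjusted p = 0.953). Without WT 1 these were 0.030 and 0.024, and Wt1 and Msln were at 0.25 and 0.026. The most distant marker was Aldh1a2, with 715 ± 164 against 909 ± 100.03 units (log2 -0.37, SE 0.19, 95% interval -0.79 to 0.05, adjusted p = 0.925). Without Hdac2-null 2, its lowest array, Aldh1a2 was at -0.20, and without Hdac2-null 3 at -0.53. Bnc1 was at -0.24 (SE 0.16, adjusted p = 0.925) and at 0.00 without WT 1. Wt1 was at 0.08 (SE 0.16), Tbx18 at -0.02 (SE 0.10) and Msln at -0.08 (SE 0.15), each with an adjusted p of 0.965 or more. Limma called 0 of 7 markers and 0.0207% of all genes, 0 of 7 had an unadjusted p under 0.05, and on floored values the groups were free of overlap for 0 of 7, against 9.58% of genes. This comparison also holds the WT arrays of the contrast in view when the markers were chosen, so its p-values are a description.

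Adding loss of Hdac2 to loss of Hopx, as double-null against Hopx-null, put Upk3b at log2 0.08 (SE 0.14, 95% interval -0.22 to 0.39, adjusted p = 0.889) and Upk1b at 0.12 (SE 0.27, adjusted p = 0.929). Aldh1a2 was at -0.12 (SE 0.19) and Msln at -0.22 (SE 0.15), the latter at -0.021 without double-null 3. Upk3b was at -0.049 without double-null 2, and Upk1b at -0.067 without Hopx-null 2. Limma called 0 of 7 markers and 0.0207% of all genes, with 0 of 7 at an unadjusted p under 0.05 and 0 of 7 without overlap on floored values, against 14.3% of genes. Averaged over both backgrounds, absence of Hdac2 gave 0.03 (SE 0.10) for Upk3b and -0.24 (SE 0.13, adjusted p = 0.631) for Aldh1a2. In that average 0 of 7 markers and 0.0207% of genes were called, and 0 of 7 had an unadjusted p under 0.05. Both this average and double-null against Hopx-null hold the Hopx-null arrays of the contrast in view when the markers were chosen. Their p-values are therefore a description.

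Double-null against WT shares the WT arrays with the contrast in view when the markers were chosen, so its marker values are given with no p. Upk3b was at log2 -0.40 (SE 0.14), Upk1b at -0.49 (SE 0.27) and Msln at -0.34 (SE 0.15). Without WT 1 these were -0.33, -0.28 and -0.23, and with array weights -0.17, -0.21 and -0.11. Upk1b was at -0.83 without WT 2, and Msln at -0.14 without double-null 3. Limma called 0 of 7 markers against 0.031% of genes. On floored values the groups were free of overlap for 0 of 7, against 14.9% of genes.

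The markers also varied among arrays of 1 genotype. The mean deviation of the 6 markers above the floor from their 12-array means was log2 0.25 on WT 1 and 0.18 on WT 3, and -0.08 on WT 2. On Hopx-null 1, 2 and 3 it was 0.09, -0.17 and -0.10, and on the Hdac2-null arrays it stayed between -0.01 and 0.05. Wild-type ventricles thus spread over most of the range that all genotypes covered. Upk1b alone deviated by 0.75 on WT 1, 0.58 on WT 3 and -0.36 on WT 2.

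**Figure D3:**
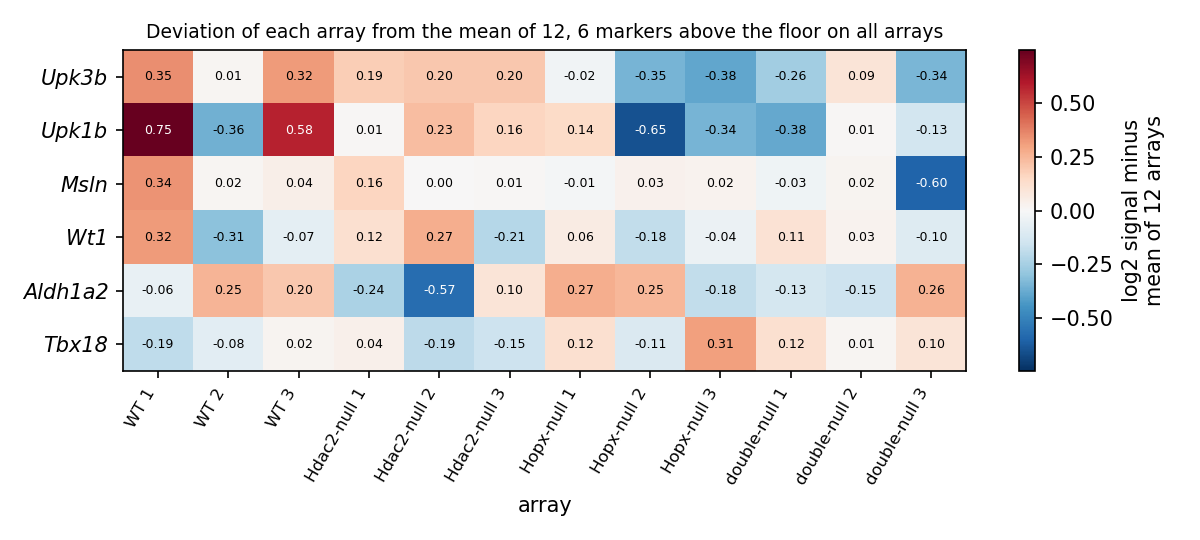
Log2 signal of 6 markers (rows) on the 12 arrays (columns) minus each marker's mean over the arrays; the colour and the printed number give the deviation. Upk3b and Upk1b are high together on WT 1 (0.35 and 0.75) and low together on Hopx-null 2 (-0.35 and -0.65). Msln is low on double-null 3 (-0.60), where Upk3b is at -0.34. Aldh1a2 is low on Hdac2-null 2 (-0.57), where Tbx18 is at -0.19.

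Relations between markers were computed for the 15 pairs of the 6 markers above the floor, over 12 arrays that share the genotype groups. Upk3b and Upk1b were high and low on much the same arrays (Pearson r = 0.85, permutation p = 0.00047, adjusted over 15 pairs p = 0.00705; Spearman rho = 0.85, permutation p = 0.00086, adjusted p = 0.0129, two-sided). The r was 0.78 without Hopx-null 2 and 3, the arrays farthest from the median of Upk3b, 0.82 without WT 1, and 0.79 with the genotype means removed. Those permutations exchange arrays across genotypes and include the values on which Upk3b was chosen. With arrays exchanged only within genotypes (all 1296 orders), the exact permutation p of the r with genotype means removed was 0.0293, and 0.22 adjusted over the 15 pairs, so the relation among arrays of 1 genotype did not pass. None of the other 14 pairs passed after adjustment by either permutation. Upk3b and Msln gave r = 0.57 (permutation p = 0.0239, adjusted p = 0.12; rho = 0.41, permutation p = 0.194, adjusted p = 0.484), with r at 0.78 without Hopx-null 2 and 3 and 0.50 with genotype means removed. Wt1 and Aldh1a2 ran in opposite directions (r = -0.68, permutation p = 0.0144, adjusted p = 0.108; rho = -0.57, permutation p = 0.056, adjusted p = 0.28), with r at -0.75 without WT 1 and WT 2 and -0.70 with genotype means removed (exact permutation p within genotypes 0.0224, adjusted p = 0.22). Upk3b and Tbx18 gave r = -0.60 (permutation p = 0.0402, adjusted p = 0.151; rho = -0.62, permutation p = 0.0352, adjusted p = 0.264), with r at -0.67 without Hopx-null 2 and 3 and -0.17 with the genotype means removed. Upk3b and Wt1, from the same cell layer, gave r = 0.36 (permutation p = 0.251, adjusted p = 0.403; rho = 0.32, permutation p = 0.312, adjusted p = 0.585), with r at 0.26 without Hopx-null 2 and 3.

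**Figure D4:**
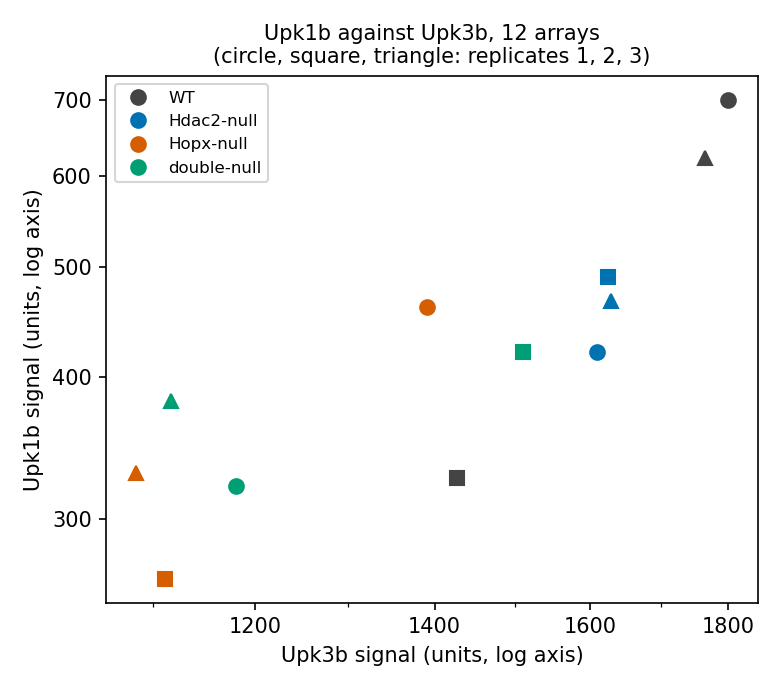
Upk1b signal (y axis) against Upk3b signal (x axis) on the 12 arrays, both in units on log axes; colours are genotypes and shapes replicates. WT 1 and WT 3 lie at the upper right (1800.2 and 1765 units of Upk3b), WT 2 lies among arrays without Hopx, and Hopx-null 2 and 3 lie at the lower left.

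The genes whose log2 signal followed each marker most closely over the 12 arrays were taken from 9660 other tested genes, as a description in which the 12 arrays share their genotype groups. For Upk3b they were Stab1, a scavenger receptor gene (Pearson r = 0.86, 0.74 with genotype means removed), Abhd16a (0.85, 0.86) and Pard6g, a cell polarity gene (0.84, 0.81). For Upk1b they were Cramp1l (0.90, 0.87), Vat1 (0.89, 0.91) and the metal transporter gene Slc39a8 (0.88, 0.84). Those of Wt1 were Slc38a10 (0.92, 0.95), Kdm3a (0.90, 0.93) and Polr3g (0.90, 0.93), and those of Tbx18 were Ebag9 (0.90, 0.92), Yipf6 (0.89, 0.85) and the desmosomal cadherin gene Dsg2 (0.88, 0.83). Aldh1a2 was followed by Dhps (0.88, 0.88), Sptb (0.87, 0.85) and Xbp1 (0.87, 0.95), and Msln by Nrn1 (0.88, 0.84), Bcl2l1 (0.85, 0.82) and Plekhb2 (0.85, 0.83). The lists of different markers had no gene in common.

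Other genes of the epicardium and mesothelium were examined as a list of 25, of which 24 were on the array and 11 could be tested. In each comparison limma called 0 of the 11. In Hdac2-null against WT 1 had an unadjusted p under 0.05 (5.11% of all genes), as had 1 in double-null against Hdac2-null (11.3%). In double-null against Hopx-null 3 had one (8.13% of all genes), as had 3 in Hdac2 absent against present (8.96%). Such counts are left out for the comparisons given with no p for the markers. In double-null against Hdac2-null ventricles 8 of 11 were lower (median log2 -0.20), as were 51.6% of all genes (median 0.00). The smallest p there was that of Podxl, which encodes the surface sialomucin podocalyxin (3241 ± 286 against 3866 ± 54.3 units, log2 -0.26, SE 0.08, adjusted p = 0.368), which was also the smallest against Hopx-null (log2 -0.28, SE 0.08, adjusted p = 0.538). In Hopx-null against WT it was that of Gpm6a, a membrane glycoprotein gene, at 1163, 1121 and 1161 units against 1399.8, 1364 and 1705. Every Hopx-null array was below every WT array, as held for 2.53% of all genes tested. Gpm6a was named by its p in this contrast, so the separation is a description. In double-null against Hdac2-null Gpm6a was at -0.22 (adjusted p = 0.481). In Hdac2-null against WT it was Pdpn, which encodes podoplanin (log2 0.29, SE 0.12, adjusted p = 0.925). The other uroplakins, Upk1a, Upk2, Upk3a and Upk3bl, were at most 4.37 units on every array.

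The retinoic acid pathway around Aldh1a2 had 6 testable genes of 18, and limma called 0 of 6 in each comparison, with 0 or 1 at an unadjusted p under 0.05, against 2.65% to 11.3% of all genes by comparison. All 6 were lower in double-null than in Hopx-null ventricles (median log2 -0.24), where 52.5% of all genes were lower (median -0.01), with the smallest p for the retinoid receptor gene Rxrb (1364 ± 106 against 1606 ± 114 units, log2 -0.24, SE 0.08, adjusted p = 0.539). The smallest p belonged to Dhrs3, a retinaldehyde reductase gene, in double-null against Hdac2-null (log2 -0.51, SE 0.39, adjusted p = 0.644), and to Rdh10, whose enzyme makes the retinaldehyde that Aldh1a2 uses, in Hdac2-null against WT (log2 -0.26, SE 0.15, adjusted p = 0.925). In Hopx-null against WT it belonged to the receptor gene Rxra (1067 ± 264 against 1286 ± 299 units).

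Genes of the epicardial transition and of its fibroblast and mural products had 19 testable members of 20, and limma called 0 of 19 in each comparison, with 0 to 3 at an unadjusted p under 0.05, against 2.65% to 11.3% of all genes by comparison. Tgfbr3, a TGF-beta co-receptor of the epicardium, measured 5058 ± 106 units in double-null and 5874 ± 140 in Hdac2-null ventricles (log2 -0.22, SE 0.06, adjusted p = 0.368) and 5088 ± 419 in Hopx-null against 5727 ± 131 in WT. It had the smallest p of the list in both. The collagen gene Col3a1 had it in Hdac2-null against WT (log2 -0.11, SE 0.03, adjusted p = 0.893), and Zeb2, a repressor of epithelial genes, in double-null against Hopx-null (log2 0.24, SE 0.09, adjusted p = 0.547). Growth signals that pass between epicardium and muscle had 9 testable members of 16, of which limma called 0 in each comparison, with 0 to 2 at an unadjusted p under 0.05, against the same shares of all genes. With arrays weighted by quality, 8 genes of the lists other than cell type markers were called in double-null against Hdac2-null. Those lists had 11 tested genes of other epicardium and mesothelium, 6 of retinoic acid, 19 of the transition and 9 growth signals. No other uroplakin was tested, and Aldh1a1 is in both the epicardial and the retinoic acid list. Of all 9667 genes tested, 951 were called under that setting, and which lists held the 8 was not examined. The growth factor receptor gene Igf1r had the smallest p in Hdac2-null against WT (log2 0.19, SE 0.08, adjusted p = 0.918), in Hopx-null against WT (log2 -0.11, SE 0.08) and in double-null against Hdac2-null (log2 -0.29, SE 0.08, adjusted p = 0.368), and the chemokine gene Cxcl12 in double-null against Hopx-null (log2 -0.29, SE 0.09, adjusted p = 0.538). Fgf9, Fgf16 and Fgf20, epicardial and endocardial mitogens of the embryonic heart, were at the floor on all arrays.

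Mesothelium also covers the organs next to the heart, so markers of other cells were read beside these values. All 7 lung epithelium genes and all 7 thymus genes on the array were below the floor on all 12 arrays, with summed signals of 30.7 to 32.3 and 31.0 to 31.7 units. Of 7 liver genes, Alb (176 units) and Afp (204.6 units) exceeded the floor on Hdac2-null 3 alone, and Ttr on Hdac2-null 2 (109.6 units), Hdac2-null 3 (188) and Hopx-null 1 (105). The liver sum was 58.4 to 76.4 units in WT, 87.4 to 627 in Hdac2-null, 62.4 to 152 in Hopx-null and 63.6 to 94.2 in double-null ventricles. Hdac2-null 3 had an Upk3b value of 1628, which lay within 20 units of the other Hdac2-null arrays. Without that array, Upk3b in double-null against Hdac2-null was at log2 -0.36, with Hdac2-null 2, where Ttr also exceeded the floor, still included. The part of neighbouring organs in the marker values was not tested. Atrial markers had 4 of 7 genes above the floor on all arrays, and their summed signal was 39508 to 41277 units in WT, 33071 to 37693 in Hdac2-null, 31208 to 37298 in Hopx-null and 33249 to 36932 in double-null ventricles. Sln, of that list, was under the floor on Hopx-null 2 alone (41.3 units, and 166 to 1616 elsewhere). Their part in the values of the epicardial markers was not tested. Endothelial markers, with 10 of 10 above the floor, summed to 15693 to 18179 units in WT, 16690.0 to 17233 in Hdac2-null, 15567 to 17590 in Hopx-null and 15364 to 15915 in double-null ventricles, and their part was not tested either. Leukocyte markers, with 4 of 8 above the floor on all arrays and Aif1, C1qa, C1qc and Ptprc below it on all, were highest on WT 1. They summed to 12359 to 17502 units in WT, 10549 to 13169 in Hdac2-null, 13870 to 15589 in Hopx-null and 11435 to 13242 in double-null ventricles, and their part was not tested. Erythroid markers, with 0 of 6 above the floor on all arrays, summed to 239.6 to 480.2 units in WT, 562 to 1618 in Hdac2-null, 201.6 to 758 in Hopx-null and 201.8 to 251 in double-null ventricles. Hbb-y, the embryonic beta-like globin gene, was at 1209, 985 and 219 units in Hdac2-null and at most 64.7 in double-null ventricles, and exceeded the floor elsewhere on WT 3 (123) and Hopx-null 1 (427). Alas2 was under the floor on double-null 3 alone, and Slc4a1 above it on 4 arrays. Of 9 skeletal muscle genes, 7 were under the floor on all arrays. Tnni2, a fast muscle troponin gene, was at 364 to 926 units on the 6 arrays without Hdac2 and at most 134 on the 6 with it, and was called in Hdac2-null against WT (log2 2.96, SE 0.27, adjusted p = 0.00189, limma). The part of these in the marker values was not tested. All 5 neural and Schwann cell genes on the array were under the floor. All 12 cardiomyocyte markers were above the floor, with sums of 351926 to 363654 units over the 12 arrays.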

How the data were processed

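The deposited table gives 1 linear signal intensity for each of 45101 probe sets on each of 12 arrays. The submitters' processing notes name MAS5, while the values have the shape of a background-adjusted, quantile-normalised summary (48.6% lie within 1 unit of 4.5), so the method is not settled and the table was used as deposited. The 64 control probe sets were left out. A floor of 82.5 units was set at 0.1 of the trimmed mean signal (averaged over arrays) and applied ahead of log2, which understates or hides differences of dim genes. Of 34945 single-gene probe sets, 34741 were matched to the RefSeq table of GRCm38.p6. For 18193 genes, the probe set of highest mean log2 signal stood for the gene. Of the 12433 genes at or above the 40th percentile, 2766 had no variance after the floor, which left 9667 tested.

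A limma 3.58.1 model of genotype means (R 4.3.3) used all 12 arrays (8 residual degrees of freedom, intensity trend), with p-values adjusted by Benjamini-Hochberg over all genes within a comparison and called at an adjusted p under 0.05. The fit was tested on simulated data. Relations between markers used 100000 permutations across arrays, and all 1296 orders within genotypes, two-sided. Precision is limited by 3 arrays a group. The labels call the arrays biological replicates. The markers, gene lists and rules for named genes were chosen with earlier results of these data known: all markers, the targeted genes, the gene of smallest p in each pathway list for each loss of 1 gene, lists of up to 5 genes in full, markers of other cells that crossed the floor, and the 3 most like genes per marker.

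The labels number replicates 1 to 3 in each genotype. WT and Hopx-null arrays of the same number shared deviations from genotype means (correlation across genes 0.15 to 0.42 for the 3 numbers). Differences between these same-numbered arrays were therefore also described as if they were pairs, which the labels do not state. The reported fit used no pairing, and the replicate number entered only the alternative with a replicate block. Same-numbered Hdac2-null and Hopx-null arrays, not compared directly here, gave 0.12 to 0.21. For the other compared genotypes at least 1 number gave an r under 0.1. Alternatives were another floor or none, quantile normalisation, no filter, other probe set rules, no trend, array weights, a replicate block, a term for Xist and each array left out.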

Additional observations from a re-analysis of the deposited data

How the results depend on the processing

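No alternative called a marker in any of the 8 comparisons: limma called 0 of 7 under each of the 10 other settings and the 12 fits that each left out 1 array. With the replicate number as a block, Upk3b stayed at log2 -0.37 in double-null against Hdac2-null ventricles (SE 0.14, adjusted p = 0.337), and the block changed no call of a marker.

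The median log2 difference of the markers in double-null against Hdac2-null was -0.26 with no floor or a floor of 16 units, and ran from -0.18 to -0.0032 with 1 array left out. In double-null against WT it was -0.11 with array weights and ran from -0.37 to -0.23 with 1 array left out. That of Hopx absent against present ran from -0.19 to -0.0016, and that of Hdac2 absent against present from -0.18 to 0.0016. The cause was not tested.

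Small differences changed sign. With no floor or a floor of 16 units, Bnc1 in Hdac2 absent against present was 0.18. With array weights, Hdac2-null against WT gave 0.013 for Upk3b, 0.022 for Tbx18 and 0.033 for Msln, Hdac2 absent against present gave 0.086 for Upk1b, and Hopx absent against present gave 0.0086 for Wt1. With 1 array left out, Hdac2-null against WT ran from -0.14 to 0.030 for Upk3b, from -0.53 to 0.024 for Upk1b, from -0.13 to 0.026 for Msln, from -0.37 to 0.0032 for Bnc1, from -0.060 to 0.25 for Wt1 and from -0.090 to 0.032 for Tbx18. Hdac2 absent against present ran from -0.040 to 0.084 for Upk3b, from -0.21 to 0.071 for Upk1b, from -0.18 to 0.0016 for Bnc1 and from -0.079 to 0.024 for Tbx18. Wt1 ran from -0.18 to 0.059 in double-null against Hdac2-null, from -0.11 to 0.045 in Hopx absent against present and from -0.11 to 0.21 in double-null against WT. In double-null against Hopx-null, Upk3b ran from -0.049 to 0.20, Upk1b from -0.067 to 0.33 and Tbx18 from -0.14 to 0.068. The cause of these changes was not tested. The marker median in Hopx-null against WT kept its sign, running from -0.18 to -0.017 with 1 array left out.

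Counts over all genes in double-null against Hdac2-null were 1 as reported, 2 with every probe set tested and 951 with array weights, which called 0 of 7 markers. The other counts over all genes were at most 8 under these settings, apart from 27 in Hdac2 absent against present without WT 3 (2 as reported). Dim markers were limited by the floor: Bnc1 was measured above it on 2 arrays. With no floor or a floor of 16 units, Bnc1 was at log2 -1.51 in Hopx-null against WT and -0.99 in double-null against WT. In Hopx absent against present it was at -1.17. The values as reported were -0.25, -0.25 and -0.12.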
